A study of Mus musculus with 6 samples.

Results

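Matrix metalloproteinases (MMPs) are zinc-dependent enzymes that cut collagens, gelatin, proteoglycans and other matrix proteins, and the tissue inhibitors of metalloproteinases (TIMPs) are the small secreted proteins that bind and block them. The genes examined were 10 of the 56953 genes in the expression table, chosen by name and matched through their Ensembl identifiers: the gelatinases Mmp2 and Mmp9, the stromelysins Mmp3 and Mmp10, the furin-activated Mmp11, the collagenase Mmp13, the membrane-anchored Mmp14, Mmp19, and the inhibitors Timp2 and Timp3. Most MMPs leave the cell as inactive precursors, which plasmin, furin or other MMPs activate. Mmp14 and Timp2 are linked in this step, since at the cell surface the Mmp14 protein holds the Timp2 protein, which in turn docks the Mmp2 precursor for cutting. In fibroblasts, Mmp2, Mmp14 and Timp2 are known as steadily produced genes, whereas Mmp3, Mmp9, Mmp10 and Mmp13 are known as inducible ones that respond to cytokines and growth factors through AP-1 and ETS transcription factors.

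The libraries were bulk RNA sequencing of mouse embryonic fibroblasts (MEFs), 3 from WT cells and 3 from cells labelled GαqKO, all grown untreated in serum-containing medium. According to the methods, the second line lacks both Gαq and Gα11 and came, like the WT line, from an outside laboratory. Whether each line derives from a single clone or from pooled embryos, and the age of the embryos, is not given in the sources used here. The study asked how loss of Gαq changes fibroblasts, matrix remodelling among the traits of interest. Values are normalized counts, that is reads per gene divided by 1 size factor per library. They summed to between 11392429 and 11483486 per library.

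Gnaq, the gene of Gαq, was not lower in the libraries labelled GαqKO (1888 to 1960 normalized counts against 1660.2 to 1747 in WT), whereas Gna11, the gene of Gα11, was (418.9 to 472.3 against 2123 to 2180), so groups are named by their labels. A transcript count does not measure protein. The study reported lack of the Gαq protein in its GαqKO MEFs by Western blot and immunofluorescence. All 8 fibroblast markers examined reached 10 normalized counts in some library, with summed levels of 81633 to 87488 in WT and 59039 to 62137 in the libraries labelled GαqKO. In the libraries labelled GαqKO, 4 of them had lower means (Vim, Col1a1, Col1a2 and Fn1) and 4 higher ones (Pdgfra, Pdgfrb, Thy1 and S100a4), with no overlap between groups. Col1a1 had 15324 to 17402 normalized counts in WT and 5461 to 5952 in the libraries labelled GαqKO, whereas Pdgfra had 17.5 to 21.9 and 2274 to 2356. Thy1 was below the floor of 3 counts in WT (0 to 2.09), against 59.0 to 76.5. Neutrophil markers, which matter because that cell type is a known source of Mmp9, summed to at most 3.13 in WT and 5.63 in the libraries labelled GαqKO. The 6 macrophage markers summed to between 108.6 and 122.4 in WT and between 71.4 and 105.2 in the libraries labelled GαqKO, most of it Cd68, while the leukocyte gene Ptprc stayed at or below 3.13 in every library. The epithelial markers summed to between 255.5 and 284.6 in WT and between 9.06 and 20.8 in the libraries labelled GαqKO, most of it Cdh1 in WT. The part of these marker differences in the results was not tested, and in bulk libraries fewer cells of a type and less RNA per cell cannot be told apart.

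The start regions of 4 inducible genes are shown, chosen with their transcript values known. Mmp9 and Mmp13 differed most between the groups, and Mmp3 and Mmp10 had few reads. Each is the stretch of 250 bases that ends just before the start of the canonical transcript, read from GRCm39 and written 5′ to 3′ along the gene, with matches to the AP-1 site TGANTCA and to the ETS site AGGAAG in capitals.
Mmp3 (chr9:7445572-7445821, + strand): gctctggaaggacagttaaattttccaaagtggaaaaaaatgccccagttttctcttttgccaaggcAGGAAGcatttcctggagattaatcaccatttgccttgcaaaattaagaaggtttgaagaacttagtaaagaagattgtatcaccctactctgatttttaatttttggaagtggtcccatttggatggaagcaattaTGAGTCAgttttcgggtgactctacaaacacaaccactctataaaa
Mmp9 (chr2:164789889-164790138, + strand): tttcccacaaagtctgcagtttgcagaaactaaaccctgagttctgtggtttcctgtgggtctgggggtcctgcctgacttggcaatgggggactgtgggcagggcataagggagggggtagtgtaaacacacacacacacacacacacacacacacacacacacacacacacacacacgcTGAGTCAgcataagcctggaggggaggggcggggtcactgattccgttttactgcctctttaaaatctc
Mmp10 (chr9:7502103-7502352, + strand): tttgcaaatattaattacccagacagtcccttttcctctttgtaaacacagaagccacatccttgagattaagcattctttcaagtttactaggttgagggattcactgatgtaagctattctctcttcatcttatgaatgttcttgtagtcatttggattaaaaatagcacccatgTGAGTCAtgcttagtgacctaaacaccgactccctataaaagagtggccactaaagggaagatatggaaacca
Mmp13 (chr9:7272264-7272513, + strand): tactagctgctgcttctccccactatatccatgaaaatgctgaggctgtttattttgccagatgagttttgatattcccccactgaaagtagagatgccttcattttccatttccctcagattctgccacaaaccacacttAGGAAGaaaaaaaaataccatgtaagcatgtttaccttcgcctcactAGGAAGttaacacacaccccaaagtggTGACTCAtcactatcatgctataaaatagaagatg
Searched on both strands, TGANTCA was found in 5 of the 10 windows, those of Mmp3, Mmp9, Mmp10, Mmp13 and Mmp19, against 6.17% of 21770 protein-coding genes. In the 4 windows shown, the site began 46 bases before the start in Mmp3, 69 in Mmp9, 73 in Mmp10 and 35 in Mmp13. AGGAAG was found in 5 windows, 2 times each in Mmp13, Mmp14 and Timp3 and 1 time each in Mmp3 and Timp2, against 28.9% of all windows. TGANTCA occurs both in the window of Mmp9, which was higher in the libraries labelled GαqKO, and in that of Mmp13, which was lower. AGGAAG occurs in that of Mmp13 but not of Mmp9. Whether either site has a part in these differences was not tested. A match is a stretch of letters only and does not show that a factor binds there. Only these exact letters were searched, so a window without a match can still hold another form of either site.

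Compared per kilobase of exon, the inhibitor Timp2 was in both groups the most abundant of those of the 10 genes that had reads. It had 2529 ± 53.0 normalized counts per kb in WT against 1659 ± 51.0 in the libraries labelled GαqKO (SD, n = 3 each). Mmp14 came next, at 629.2 ± 23.7 and 653.6 ± 6.38 per kb (SD, n = 3 each). Mmp2 followed with 321.4 ± 9.20 per kb in WT and 171.7 ± 6.39 in the libraries labelled GαqKO, and Mmp11 with 112.6 ± 11.7 and 84.2 ± 9.08 (SD, n = 3 each). These 4 genes kept the same order in both groups, with no overlap between neighbours. The less abundant genes differed in order. In WT it ran from Mmp13 (16.1 ± 6.07 per kb) to Mmp9 (3.26 ± 1.77), Mmp3 (1.33 ± 1.18) and Mmp10 (0.592 ± 0.607; SD, n = 3 each), and the libraries of Mmp9, Mmp3 and Mmp10 overlapped between neighbours. In the libraries labelled GαqKO, Mmp9 (63.4 ± 4.77 per kb) lay just below Mmp11, followed by Mmp3 (6.22 ± 1.07), Mmp13 (0.916 ± 0.943) and Mmp10 (0.419 ± 0.365), and only Mmp13 and Mmp10 overlapped. Mmp19 and Timp3 were listed at 0 throughout.

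**Figure D1:**
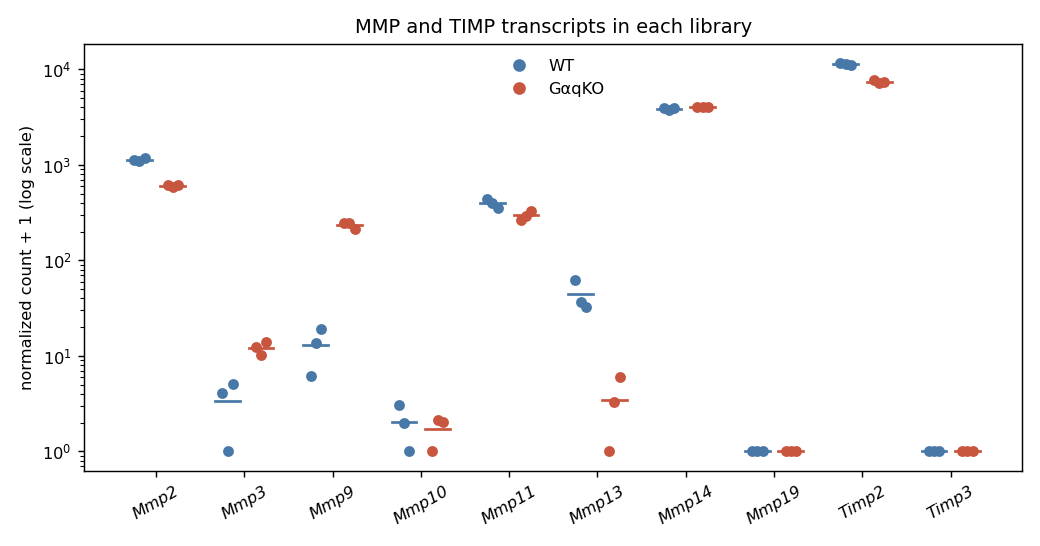
Normalized count + 1 on a log axis for the 10 genes, with 1 point per library (blue for WT, red for GαqKO) and a line at each group's mean. Mmp9 sits near 12.1 normalized counts in WT and 234.9 in the libraries labelled GαqKO, Mmp13 shows the opposite pattern, the Mmp14 groups lie close together, and Mmp19 and Timp3 lie at 0.

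Of the 10 genes, 6 reached 10 normalized counts in 3 or more libraries and so entered a limma fit on log2(normalized count + 1) over 14096 genes, whose p-values were adjusted by the Benjamini-Hochberg method. All log2 fold changes given are of normalized count + 1, and for genes with low counts their size depends on the added 1. With the thresholds of the study's methods (adjusted p under 0.05 and log2 fold change over 1 or under -1), Mmp9 was higher and Mmp13 was lower. Among all genes tested, 10.2% were higher and 10.5% lower by these thresholds, 20.7% in all. At an adjusted p under 0.05 with any fold, 1 of the 6 rose (Mmp9) and 4 fell (Mmp2, Mmp11, Mmp13 and Timp2), whereas of all genes tested 31.8% rose and 34.1% fell at this looser threshold, 65.8% in all. The median log2 fold change of the 6 was -0.51, beside -0.01 for all genes tested. All 6 had groups that did not overlap, as did 69.6% of all genes tested. Mmp9 reached 10 normalized counts in the 3 libraries labelled GαqKO and in 2 WT libraries, and Mmp13 in the 3 WT libraries alone. Each would have missed the filter without the group where it was high, so these counts are no measure of the 10 genes.

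Mmp9 (ENSMUSG00000017737.3, chromosome 2 of GRCm39, 164780439 to 164797771) encodes gelatinase B, which degrades denatured collagen and basement membrane collagen. Its normalized counts were 5.22, 12.6 and 18.3 in WT replicates 1, 2 and 3 and 245.1, 245.1 and 214.5 in GαqKO replicates 1, 2 and 3. Every library labelled GαqKO lay far above every WT library, and the WT libraries differed among themselves more in proportion than the others. The means were 12.1 ± 6.57 and 234.9 ± 17.7 (SD, n = 3 each), or 4.32 as log2 fold change (SE 0.324, 95% interval 3.62 to 5.02, adjusted p = 4.83e-08 from limma). Only 168 of the 14096 genes tested had a log2 fold change as high or higher. No exonic base of Mmp9 lies inside another gene of the table. Neutrophil markers were at or near 0 in each library. Macrophage markers summed to between 108.6 and 122.4 in WT and between 71.4 and 105.2 in the libraries labelled GαqKO, most of it Cd68. The part of other cell types in the Mmp9 reads was not tested.

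Mmp2 (ENSMUSG00000031740.9, chromosome 8, 93553902 to 93580049), the gene of gelatinase A, went the other way. It had 1127, 1108 and 1172 normalized counts in the WT libraries and 619.8, 580.4 and 619.3 in those labelled GαqKO. The groups were well apart and each was tight. The mean decreased from 1136 ± 32.5 to 606.5 ± 22.6 (SD, n = 3 each), or -0.90 as log2 fold change (SE 0.055, 95% interval -1.02 to -0.78, adjusted p = 5.92e-09 from limma), which misses the fold threshold. Of its exonic bases, 24.3% lie inside the span of the lncRNA gene Gm45472 on the opposite strand, which itself had at most 4.18 normalized counts.

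Mmp13 (ENSMUSG00000050578.11, chromosome 9, 7272514 to 7283331), the main interstitial collagenase of rodents, had 61.6, 35.9 and 31.6 normalized counts in WT and 0, 2.31 and 5.04 in the libraries labelled GαqKO. It was detectable in each WT library and at or close to the floor of 3 counts in the others, with WT replicate 1 well above the other two. The means were 43.0 ± 16.2 and 2.45 ± 2.52 (SD, n = 3 each), and the log2 fold change was -3.96 (standard error 0.571, 95% interval -5.19 to -2.73, adjusted p = 3.36e-05 from limma). As the counts in the second group are so few, the size of this fall depends on the pseudocount, and the fit gave -4.40 with a pseudocount of 0.5 and -2.70 with 5.

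The stromelysins lie with Mmp13 in a cluster of 10 MMP genes on chromosome 9, from 7272514 to 7699587. Mmp3 (7445822 to 7455975) had 3.13, 0 and 4.07 normalized counts in WT and 11.3, 9.25 and 13.1 in the libraries labelled GαqKO. The groups did not overlap, but the gene missed the filter and was not tested in the main fit. With no filter its log2 fold change was 2.13 (standard error 0.645, adjusted p = 0.011 from limma). Mmp10 (7502353 to 7510241) was at or below the floor in every library, with at most 2.09 normalized counts in WT and 1.16 in the others, so no fold is given. Summed over the cluster, the values were 67.9, 37.9 and 37.7 normalized counts in the WT libraries and 12.2, 16.2 and 21.1 in those labelled GαqKO. Mmp13 and Mmp3 were the only 2 of the 10 cluster genes with 10 normalized counts in any library, so the cluster carried mainly Mmp13 reads in WT and mainly Mmp3 reads in the libraries labelled GαqKO.

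Mmp11 (ENSMUSG00000000901.18, chromosome 10, 75759055 to 75772330), an MMP that furin activates inside the cell, had 435.4, 401.2 and 353.2 normalized counts in WT and 266.7, 292.5 and 330.3 in the libraries labelled GαqKO. The gap between the lowest WT library and the highest library labelled GαqKO was small beside the spread within each group. The mean went from 396.6 ± 41.3 to 296.5 ± 31.998 (SD, n = 3 each), or -0.42 as log2 fold change (SE 0.1, adjusted p = 0.00224 from limma). A stretch holding 5.85% of its exonic bases lies inside Chchd10, which had at most 1.04 normalized counts.

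Mmp14 (ENSMUSG00000000957.12, chromosome 14, 54668878 to 54682821), which encodes the membrane-anchored collagenase MT1-MMP, had 3967, 3711 and 3961 normalized counts in WT and 4034, 3989 and 4067 in the libraries labelled GαqKO. The groups did not overlap by a narrow margin. Their means were 3880 ± 146.3 and 4030 ± 39.3 (SD, n = 3 each), a difference of about the size of the WT SD. The log2 fold change was 0.06 (standard error 0.042, 95% interval -0.03 to 0.15, adjusted p = 0.26 from limma), and this interval leaves room for a rise of up to 0.15 on the log2 scale.

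**Figure D2:**
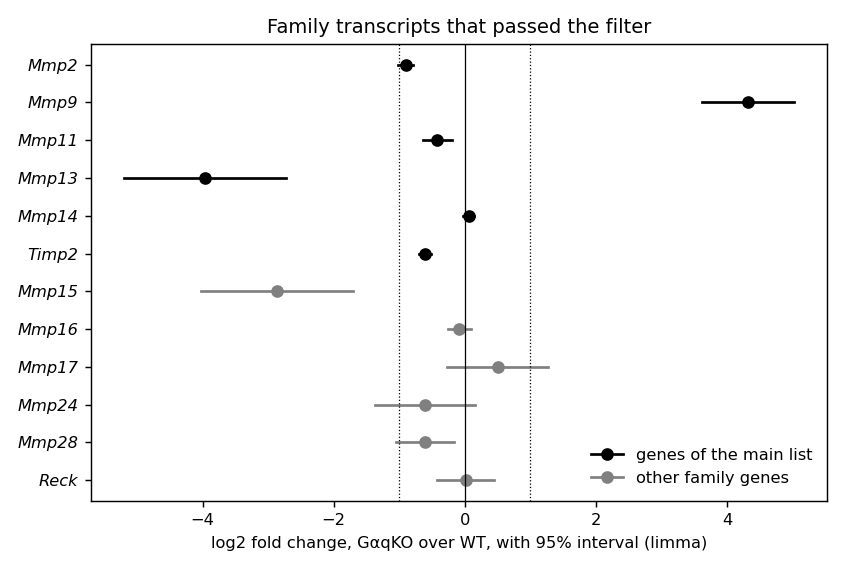
Log2 fold change of libraries labelled GαqKO over WT with its 95% interval from limma, for the 6 genes of the main list that passed the filter (black) and 6 other genes of the family (grey), with dotted lines at 1 and -1. Mmp9 lies at 4.32, Mmp13 at -3.96 and Mmp15 at -2.87, and the intervals of Mmp14, Mmp16, Mmp17, Mmp24 and Reck span 0.

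Timp2 (ENSMUSG00000017466.11, chromosome 11, 118191887 to 118246566) had 11544, 11243 and 11077 normalized counts in WT and 7667, 7259 and 7288 in the libraries labelled GαqKO. Each group was tight and they lay far apart. The mean went from 11288 ± 236.3 to 7405 ± 227.8 (SD, n = 3 each), or -0.61 as log2 fold change (SE 0.04, 95% interval -0.70 to -0.52, adjusted p = 1.38e-08 from limma). The exonic share inside another gene was 7.44%, in Cep295nl, which was listed at 0.

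With Timp2 lower and no difference past the test in Mmp14, the ratio of Mmp14 to Timp2, per exonic kb, was higher in the libraries labelled GαqKO. On the log2 scale it was -2.01, -2.07 and -1.95 in WT and -1.39, -1.33 and -1.31 in the libraries labelled GαqKO. The groups did not overlap. The mean ratio was 1.58-fold higher, a difference of 0.66 on the log2 scale (exact permutation test, two-sided, p = 0.1, the smallest that 3 against 3 libraries allow). For Mmp2 the ratio to Timp2 was lower, at -3.02, -3.01 and -2.90 in WT and -3.29, -3.31 and -3.22 in the libraries labelled GαqKO, a difference of -0.30 (exact permutation test, two-sided, p = 0.1, again the smallest possible). These are ratios of transcripts and not of proteins.

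**Figure D3:**
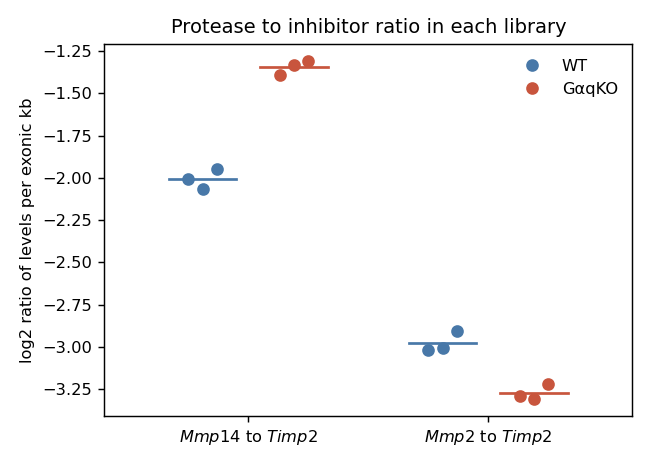
Log2 ratio of normalized counts per exonic kb for Mmp14 to Timp2 and for Mmp2 to Timp2, with 1 point per library (blue for WT, red for GαqKO) and a line at the mean. The mean Mmp14 ratio goes from -2.01 to -1.34 and the mean Mmp2 ratio from -2.98 to -3.27.

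The remaining genes of the list, Mmp19 and the matrix-bound inhibitor Timp3, were listed at exactly 0 in all 6 libraries, as were the inhibitors Timp1 and Timp4. Each of the 4 has all of its exonic bases inside the spans of other genes. Timp3 (ENSMUSG00000020044.14, chromosome 10, 86136236 to 86185371) lies inside Syn3, Timp1 inside Syn1 and Timp4 inside Syn2, each on the opposite strand, and Mmp19 (ENSMUSG00000025355.8, chromosome 10, 128626773 to 128636695) lies inside Tmem198b, also on the opposite strand. Across the table, 71.5% of 1607 protein-coding genes that lie wholly inside other genes were listed at 0, against 25.2% of 11516 with no overlap. For the 898 whose hosts all lie on the opposite strand the share was 72.2%, and for the 541 that share no exonic base with their host it was 84.3%. Therefore a 0 of these 4 genes is given only as listed, and no level of Timp1, Timp3, Timp4 or Mmp19 in these cells can be read from it. The hosts did have reads, with 129.3 to 182.7 normalized counts of Syn1 in WT and 79.8 to 117.9 in the libraries labelled GαqKO, and 10.7 to 19.8 and 30.2 to 36.6 of Syn3. Of the MMP inhibitors examined, Timp2 and Reck had reads.

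**Figure D4:**
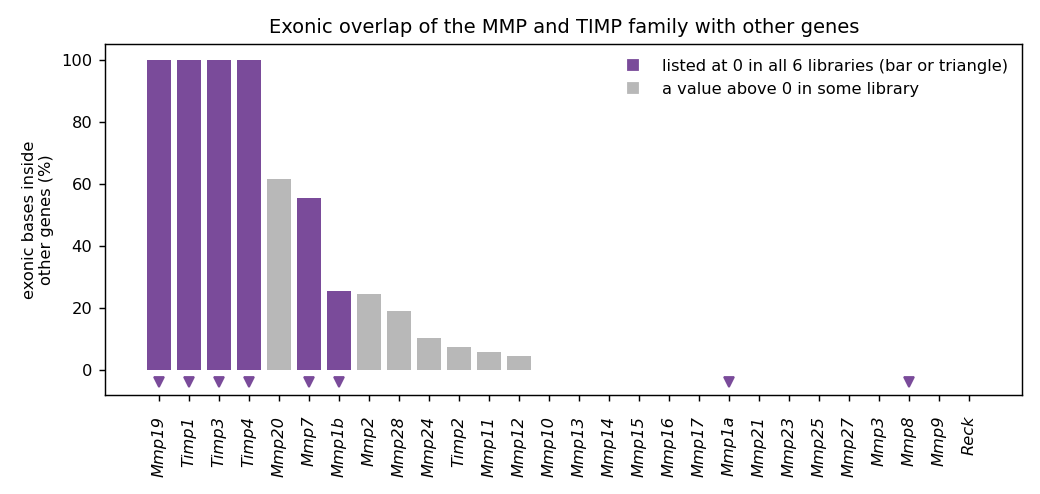
Share of the exonic bases (in percent) of the 28 MMP, TIMP and RECK genes that lies inside the spans of other genes of the table, with purple bars and triangles for genes listed at 0 in all 6 libraries and grey bars for the others. The 4 genes at 100%, Mmp19, Timp1, Timp3 and Timp4, are among the 8 listed at 0, and 2 of the other 4 (Mmp7 and Mmp1b) overlap in part while Mmp1a and Mmp8 do not overlap.

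Of the 18 other genes of the family, 6 passed the filter, and 0 were higher and 1 was lower by both thresholds, in limma and in edgeR alike (0 higher and 2 lower at an unadjusted p under 0.05 in limma, where 33.3% of all genes tested were higher and 35.3% lower, 68.5% in all). All edgeR counts given here leave out GαqKO replicate 3. The gene lower by both thresholds was Mmp15, a membrane-anchored relative of Mmp14, with 29.2, 34.0 and 37.7 normalized counts in WT and 0.939, 3.47 and 11.1 in the libraries labelled GαqKO. Its log2 fold change was -2.87 (standard error 0.537, adjusted p = 3.33e-04 from limma). It passed the filter through its 3 WT libraries, with 1 library labelled GαqKO at 10 or more, so its call is no support for the list. Mmp16, another membrane-anchored MMP, had 625.2 ± 66.8 and 589.0 ± 34.0 normalized counts (SD, n = 3 each; log2 fold change -0.08, adjusted p = 0.376 from limma). Mmp17 (log2 fold change 0.50, 95% interval -0.28 to 1.27) and Mmp24 (-0.61, -1.37 to 0.15), also membrane-bound, did not pass the test. The secreted Mmp28 fell from 60.8 ± 7.46 to 39.8 ± 6.24 (SD, n = 3 each; adjusted p = 0.0192 from limma). Reck, a membrane-anchored inhibitor of MMPs, had 41.8, 47.6 and 40.7 normalized counts in WT and 41.3, 47.4 and 42.3 in the libraries labelled GαqKO, with fully overlapping groups (log2 fold change 0.01, 95% interval -0.42 to 0.44, adjusted p = 0.966 from limma).

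Among 11 genes of the plasminogen system and the proprotein convertases, which activate MMP precursors, 5 passed the filter. By both thresholds 0 were higher and 1 was lower, Plat, with the same counts in edgeR (3 higher and 2 lower at an unadjusted p under 0.05 in limma, beside 68.5% of all genes tested). Plat, the tissue-type plasminogen activator, had 448.0, 432.3 and 415.3 normalized counts in WT and 100.5, 128.3 and 152.1 in the libraries labelled GαqKO. The groups lay far apart, with means of 431.8 ± 16.3 and 127.0 ± 25.8 (SD, n = 3 each), or -1.78 as log2 fold change (SE 0.13, adjusted p = 3.85e-08 from limma). Plau, the urokinase-type activator, and its receptor gene Plaur rose by less than the fold threshold, with log2 fold changes of 0.62 and 0.41 (adjusted p = 2.45e-05 and 6.07e-05 from limma). The activating protease Furin had a log2 fold change of 0.43 (adjusted p = 8.55e-06 from limma).

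The ADAM sheddases are cell-surface relatives of MMPs that release growth factors and cytokines, and TIMPs block some of them. Of 9 genes, 7 passed the filter, with 1 higher and 1 lower by both thresholds, beside 10.2% and 10.5% of all genes tested. Adam12, in normalized counts, rose from 112.1 ± 15.1 to 408.1 ± 25.1 (SD, n = 3 each), or 1.86 as log2 fold change (SE 0.115, adjusted p = 6.28e-09 from limma). Adam19 had 78.3, 80.6 and 93.6 normalized counts in WT and 0.939, 8.09 and 0 in the libraries labelled GαqKO, or -5.03 as log2 fold change (SE 0.606, adjusted p = 6.14e-06 from limma). It passed the filter through WT alone, so its call is no support for the list either. Of the exonic bases of Adam19, 45.3% lie inside other genes on the opposite strand. The broadly acting sheddases Adam10 and Adam17 fell by less than the fold threshold, with log2 fold changes of -0.56 and -0.14 (adjusted p = 6.33e-08 and 0.0414 from limma).

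Of 11 genes of surface partners and clearance receptors, 9 passed the filter. By both thresholds 0 were higher and 3 lower, beside 10.2% and 10.5% of all genes tested. The counts in edgeR were the same (1 higher and 7 lower at an unadjusted p under 0.05 in limma, beside 68.5% of all genes tested). Thbs1, the gene of thrombospondin-1, which binds MMP2 and takes it to a clearance receptor, went from 8639 ± 345.6 to 1244 ± 44.9 (SD, n = 3 each), or -2.79 as log2 fold change. The collagen receptor gene Ddr1 had a log2 fold change of -1.94 and the integrin chain gene Itgav one of -1.04, just past the threshold (95% interval -1.13 to -0.95). The adjusted p was 1.54e-14 for Thbs1, 2.71e-12 for Ddr1 and 8.38e-11 for Itgav (limma).

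All 17 genes of AP-1, ETS and RUNX factors and their partners passed the filter. By both thresholds 3 were higher and 1 lower, beside 10.2% and 10.5% of all genes tested. At an adjusted p under 0.05 with any fold (limma), 7 rose and 7 fell, beside 31.8% and 34.1% of all genes tested. The 3 higher by both thresholds form the PEA3 subfamily of ETS factors, which are known activators of MMP promoters. The other ETS genes of the list, Ets1 and Ets2, were lower by less than the fold threshold. Their log2 fold changes were -0.50 and -0.69 (adjusted p = 1.25e-07 and 3.74e-08 from limma). Etv1 had 13.6, 18.5 and 10.2 normalized counts in WT and 517.4, 485.6 and 454.2 in the libraries labelled GαqKO, or 5.05 as log2 fold change (SE 0.195, adjusted p = 5.00e-11 from limma). Etv4 rose from 865.8 ± 22.0 to 3067 ± 89.1 and Etv5 from 131.4 ± 3.76 to 548.4 ± 50.7 (SD, n = 3 each), or 1.82 and 2.05 as log2 fold changes (adjusted p = 9.16e-13 and 2.61e-10 from limma). Jund, an AP-1 subunit, had 3519, 3226 and 3105 normalized counts in WT and 582.2, 536.5 and 700.9 in the libraries labelled GαqKO, or -2.44 as log2 fold change (SE 0.082, adjusted p = 1.34e-11 from limma). Its partner gene Jun had a log2 fold change of 0.78 (adjusted p = 2.61e-09 from limma). Of the exonic bases, 55.1% of those of Jund lie inside Gm11175 and 100% of those of Jun inside Junos, both on the opposite strand. How far this overlap affects the counts of Jund and Jun was not tested. The mean levels of the RUNX genes differed little, with log2 fold changes of -0.04 for Runx1 and 0.04 for Runx2 and 95% intervals of -0.15 to 0.07 and -0.08 to 0.15. Whether any of these factors acts on the MMP genes was not tested.

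**Figure D5:**
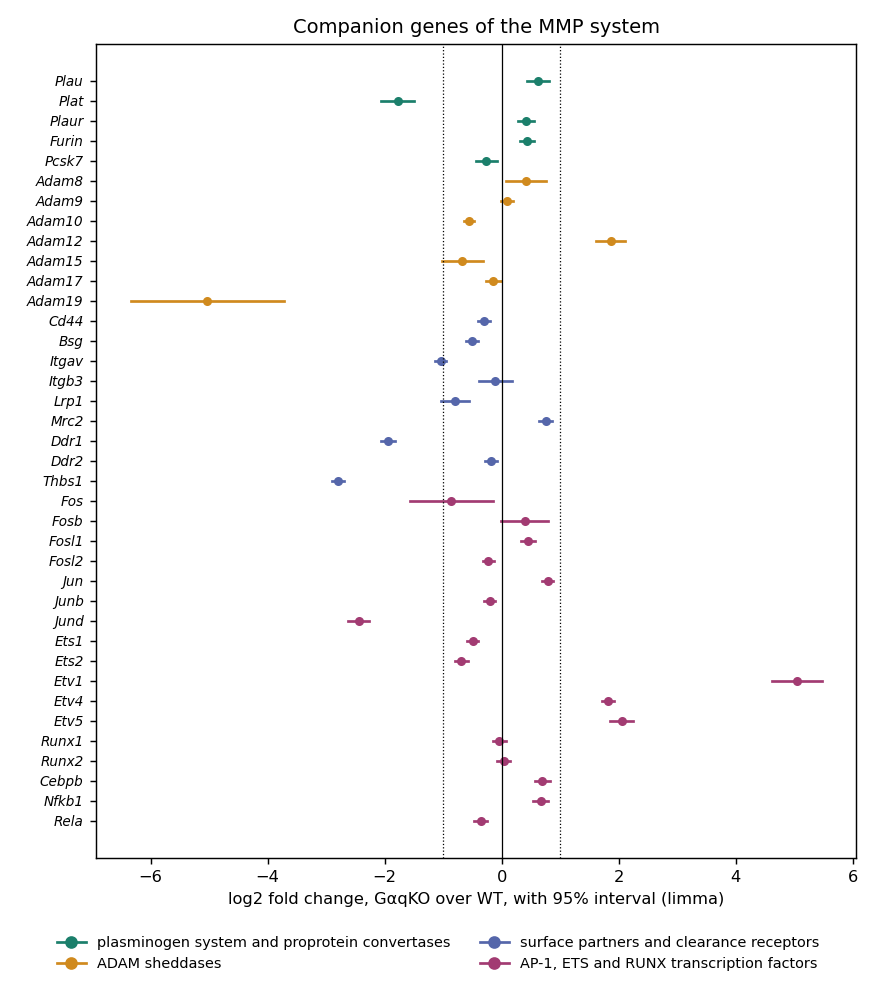
Log2 fold change of libraries labelled GαqKO over WT with its 95% interval from limma for the tested genes of the plasminogen system and convertases, ADAM sheddases, surface partners and transcription factors, colored by list, with dotted lines at 1 and -1. Etv1 lies farthest to the right at 5.05 and Adam19 farthest to the left at -5.03, and most others lie between the dotted lines.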

How the data were processed

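The authors made poly-A selected, stranded mRNA libraries, sequenced 150-base read pairs, and aligned these to GRCm39 by Rbowtie2. Genes were counted by featureCounts (mouse GENCODE release 32), and DESeq2 was used in R. What the authors deposited is a signal: counts per gene after division by a size factor of each library. Tool versions, the strand setting and the feature type of the counting are not given in the sources used here. Dividing each column by its smallest step returned whole numbers (within 0.1) for 100% of values above 0, and so 9853000 to 12229175 reads in 5 libraries. The reads of GαqKO replicate 3, whose step was 1.007, were not used, although its values were whole multiples of that step as well. The edgeR and DESeq2 fits therefore rest on the other 5 libraries.

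Symbols, gene spans and promoter windows came from GENCODE release 39 on the same build (98.9% of identifiers matched). An exonic base counted as overlapped where it fell in the span of any other gene of the table, on either strand. The main test was limma on log2(normalized count + 1) whose prior spread followed a trend, over genes that reached 10 normalized counts in 3 or more libraries, and the script was tested on simulated data. Alternatives were TMM scaling, other filters (none, or 10 in every library), pseudocounts of 0.5 and 5, the replicate number as a block, the treat test of limma, no trend, edgeR's quasi-likelihood test and DESeq2 on the recovered reads, and each library left out. The gene lists and members were chosen with earlier results of these data known. All 10 members were to be named, with every gene of the other lists past the thresholds whose mean reached 50 normalized counts, and Timp1, Timp4 and Reck. Mmp15, Mmp16, Mmp17, Mmp24, Mmp28, Plau, Plaur, Furin, Adam10, Adam17, Adam19, Ets1, Ets2, Jun, Runx1 and Runx2 were named after their values were seen. A gene of the plasminogen list is not reported here. The methods state biological replicates. What was cultured separately is not given, so p-values measure the spread between these libraries. Each group comes from its own line, so a difference between the lines and an effect of the genotype cannot be told apart. Python 3.11.15 (numpy 2.4.6, pandas 2.3.3, matplotlib 3.10.9) and R 4.3.3 (limma 3.58.1, edgeR 4.0.16, DESeq2 1.42.0) were used.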

Additional observations from a re-analysis of the deposited data

How the results depend on the processing

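The filter moved the counts of MMP and TIMP genes most. With no filter, 2 genes were higher both by the thresholds and at an adjusted p under 0.05, because Mmp3 entered. With at least 10 normalized counts required in every library, Mmp9 and Mmp13 left the fit, so 0 were higher and 0 lower by the thresholds and 0 higher at an adjusted p under 0.05. For all genes that filter left 831 higher and 765 lower, and limma's treat test, with its bound set at the fold threshold, called 847 higher. Under the treat test, by its construction, the log2 fold changes of Mmp2 (-0.90), Mmp11 (-0.42) and Timp2 (-0.61) lost their call. Over the other alternatives the log2 fold change ran from 3.86 to 4.68 for Mmp9, from -5.35 to -2.70 for Mmp13, from -0.92 to -0.87 for Mmp2, from -0.63 to -0.59 for Timp2 and from -0.50 to -0.35 for Mmp11, each with an adjusted p of at most 0.0225, and from 0.02 to 0.07 for Mmp14 with none under 0.153 (limma, edgeR and DESeq2). With the genes tested kept as in the fit of all 6 libraries, leaving out each library in turn changed no call of the tested members. Had the filter been applied anew, Mmp13 would have left the fit without any 1 WT library. Only its 3 WT libraries reached 10 normalized counts. With edgeR on the reads of the 5 libraries, 1430 genes were higher and 1470 lower. With the replicate block, 1 member was higher and 1 lower by the thresholds, as without it. The numbers were not taken to pair the samples. Deviations of same-numbered libraries from their group means correlated at -0.05, -0.15 and -0.06. With 3 libraries per group this cannot show whether such libraries were made together. Depth limits Mmp3, Mmp10 and Mmp13 most, with at most a few reads in a group.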
